A study of Mus musculus with 6 samples.

Results

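The genes described here encode the replication fork machinery: the replicative DNA polymerases, the sliding clamp and its loaders, the single-stranded DNA binding protein RPA, the GINS and Cdc45 helicase cofactors, the fork protection proteins and the chromatin assembly factors. Members were taken from a list of 37 symbols, and all 37 were found among the 28293 genes in the count files and passed the low-count filter that left 15081 genes for testing. The counts come from poly(A)-selected RNA of 6 libraries of a mouse dermal fibroblast line, 3 wild-type (WT) and 3 labelled Lap2alpha KO (KO), grown in DMEM with fetal calf serum, penicillin and streptomycin. The labels name no treatment, time point, promoter, parental clone or number of clones, and nothing says that the replicates were separate cultures, so the p-values rest on library-to-library spread alone, which may be technical. A difference between clones or cultures cannot be told apart from the loss of LAP2alpha.

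At a replication fork, the CMG helicase (Mcm2-7 with Cdc45 and GINS) unwinds DNA, primase-polymerase alpha lays down primers, polymerase epsilon extends the leading strand and polymerase delta the lagging strand. RFC loads the ring-shaped clamp PCNA that tethers the polymerases, RPA coats the exposed single strands, and Fen1 and Lig1 join the Okazaki fragments. Many of these genes are transcribed around the G1/S transition under E2F factors, which the retinoblastoma protein holds in check. LAP2alpha, an isoform encoded by Tmpo that lacks a membrane anchor, is known to bind A-type lamins and the retinoblastoma protein in the nuclear interior.

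The libraries held 22159339 to 27281473 counts, and the least abundant member value was 115 counts in a library. Levels are given in CPM (counts of a gene per 1000000 counts of the library). Tmpo, the targeted gene (chr10:91147571-91181315, minus strand, GRCm38), stood at 254, 249 and 252 CPM in the WT libraries and at 135, 122 and 131 CPM in the KO libraries. Its count sums all LAP2 isoforms, so it checks the alpha isoform only in part. Of 12 dermal fibroblast markers, all 12 had reads and 10 were higher in KO, Thy1 was lower (log2 fold change -0.75) and P4hb was not called. Their summed level, most of it from Col1a1 and Col1a2 in KO, was 7620 to 8096 CPM in WT and 24515 to 26046 CPM in KO. Markers of keratinocytes, endothelium, leukocytes, melanocytes and muscle summed to at most 8.39 CPM a list in any library, and Ptprc, a defining leukocyte marker, had 1 count in all 6 libraries together. Krt5, Krt1, Adgre1, Cd3e, Myod1 and Myog were looked up and not found among the genes in the count files. Mitochondrial genes took 1.99% to 2.45% of counts in WT and 3.76% to 4.46% in KO. The part of the fibroblast marker and mitochondrial differences in the results below was not tested.

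All 37 fork genes were lower in KO. Each was called in edgeR's quasi-likelihood test (adjusted p from 1.4e-09 to 0.0042 after Benjamini-Hochberg adjustment over all tested genes), and in each the 3 KO values lay below the 3 WT values. Over all tested genes 75.1% were called, 37.5% as lower and 37.7% as higher, 76.8% did not overlap between the groups in CPM, and 34.6% had all KO values below all WT values. The median log2 fold change of the fork genes was -0.92, a 1.89-fold decrease, against 0.01 over all tested genes. The range ran from -1.86 for Fen1 to -0.24 for Rpa1. A decrease of at least 2-fold was called for 17 of the 37, beside 11.4% of all tested genes. In this bulk measurement fewer cells in S phase and less RNA in each cell cannot be told apart. The proliferation marker Mki67 was measured at 187, 193 and 221 CPM in WT and at 217, 209 and 213 CPM in KO, and was not called (edgeR adjusted p = 0.89). Top2a, among the other fork and chromatin assembly factors below, was called as lower (log2 fold change -0.81, edgeR adjusted p = 1.2e-07). It stood at 711, 689 and 715 CPM in WT and at 441, 418 and 415 CPM in KO. The share of dividing cells was not tested.

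**Figure D1:**
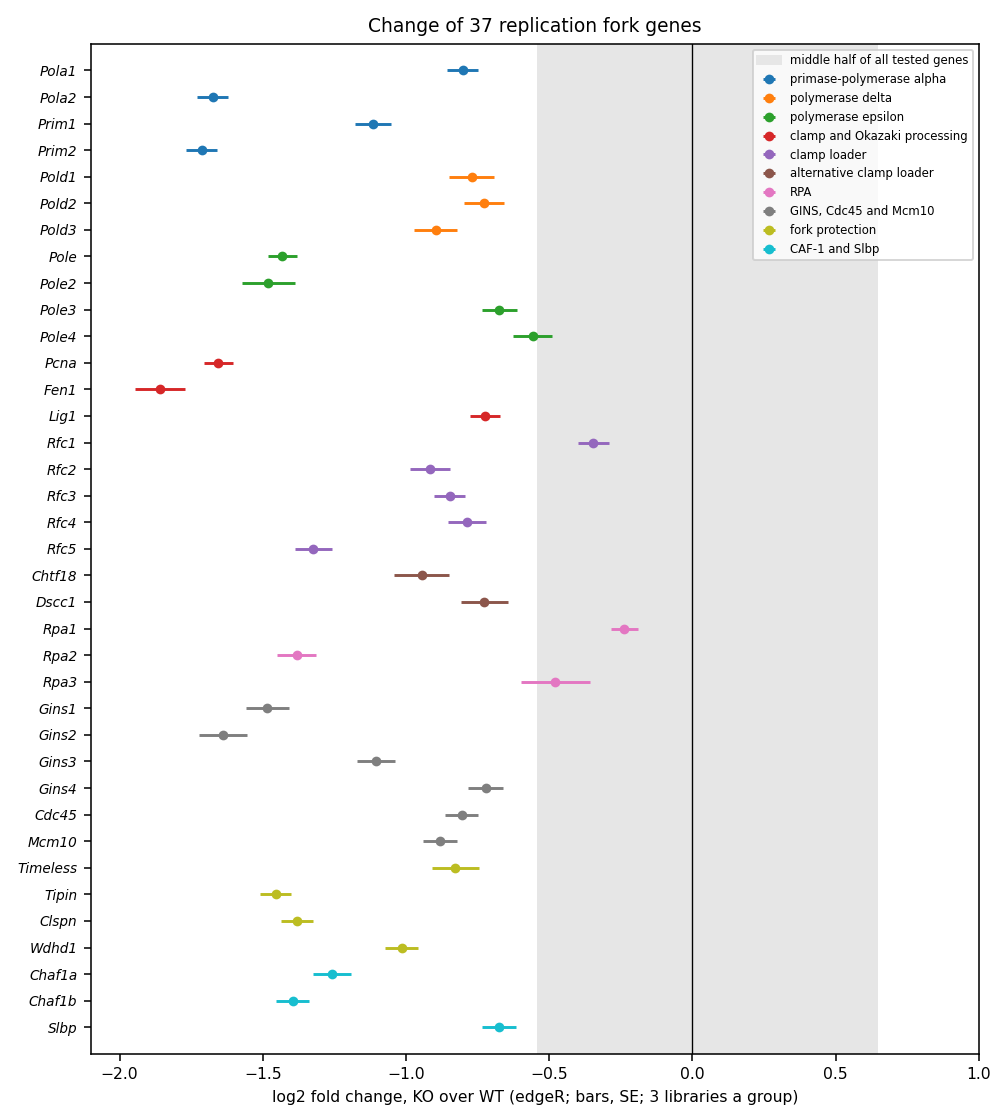
Log2 fold change, KO over WT, of the 37 fork genes in edgeR (points; bars, SE; n = 3 libraries a group), coloured by role, with the span between the quartiles of all 15081 tested genes in grey (-0.54 to 0.64). Every point lies left of 0, from -1.86 for Fen1 to -0.24 for Rpa1, and all but Rpa1, Rfc1 and Rpa3 lie left of the grey span.

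Summed over the 37 genes, the WT libraries held 3011, 3040 and 3023 CPM and the KO libraries 1560, 1581 and 1575 CPM. The fork transcripts therefore took 52.0% of their WT share of the RNA, and the groups did not overlap. For single genes, the SD within a group was at most 13.0% of the mean in WT and 16.1% in KO, both for Rpa3. Rpa3 itself stood at 48.4 ± 6.28 CPM in WT and 36.6 ± 5.89 CPM in KO (SD, n = 3), so its spread was not small beside its change.

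**Figure D2:**
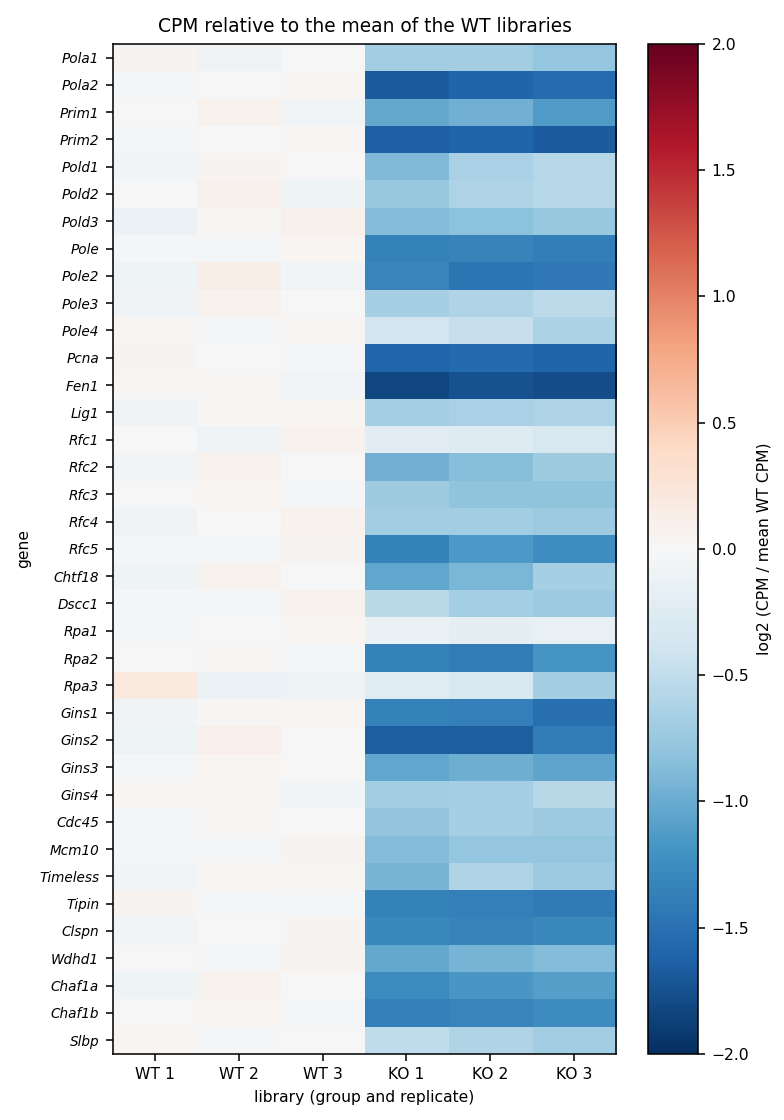
CPM of each fork gene in each of the 6 libraries relative to the mean of the WT libraries, on a log2 scale (blue, lower; red, higher). The 3 KO columns are blue throughout and palest for Rpa1 and Rfc1, and Rpa3 has its highest value in WT replicate 1 (55.7 CPM).

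The promoters of the members were read from RefSeq (GRCm38.p6) to see which letters they share. An entry was found for 29 members, with 34 start sites. The 250 bases before each start were searched on both strands for the E2F-type letters TTTGGCGC, TTTCGCGC, TTTCCCGC and TTTGCCGC. At least 1 of these was present in 4 of the 29 members (13.8%), beside 3.96% of 10030 tested genes with an entry. The same letters without the first T (TTGGCGC, the form TTCGCGC, the form TTCCCGC and the form TTGCCGC) were present in 12 of 29 members (41.4%), beside 16.1% of tested genes. This search was added after the data were seen and contains the longer one. Counted per start site, 13 of 34 (38.2%) held the shorter letters, beside 13.5% of those of tested genes and 7.89% of all 32851 promoters searched. The 12 members with the shorter letters had a median log2 fold change of -1.06 (range -1.86 to -0.48) and the 17 without them -0.83 (range -1.68 to -0.24), so the ranges overlapped. With the longer letters the order was the other way, at a median of -0.82 in the 4 members that hold them and -0.90 in the 25 that do not, so the searches gave no common order. The CCAAT box (CCAAT) was present in 16 of 29 members (55.2%; 41.3% of tested genes), and the CHR letters TTTGAA, known from G2/M genes, in 4 (13.8%; 12.9% of tested genes). A match describes these letters only.

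5 stretches are printed to show how differently the letters are placed in genes that fell together, all of them upstream of the GENCODE gene, 5′ to 3′ on the gene's strand, with the shorter E2F-type letters of either strand in capitals. Chaf1a (chr17:56040316-56040415, plus strand) carries 2 copies close together, Rpa2 (chr4:132768260-132768331, plus) has 1, Pola1 (chrX:93632256-93632355, minus) has 3, Chaf1b (chr16:93883651-93883750, plus) has 1 far from its start, and Pola2 (chr19:5964207-5964306, minus), with the third largest decrease, has none in the searched 250 bases.
Chaf1a: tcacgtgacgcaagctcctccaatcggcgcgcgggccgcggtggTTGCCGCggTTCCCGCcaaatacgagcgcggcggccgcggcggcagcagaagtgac
Rpa2: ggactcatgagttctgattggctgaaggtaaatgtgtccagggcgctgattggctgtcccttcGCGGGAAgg
Pola1: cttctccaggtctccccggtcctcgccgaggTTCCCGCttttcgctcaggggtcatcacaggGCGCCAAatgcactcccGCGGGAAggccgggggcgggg
Chaf1b: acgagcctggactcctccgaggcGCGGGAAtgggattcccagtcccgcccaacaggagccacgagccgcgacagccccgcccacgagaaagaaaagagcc
Pola2: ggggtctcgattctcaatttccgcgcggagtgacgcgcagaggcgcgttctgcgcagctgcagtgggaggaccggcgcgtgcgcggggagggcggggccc

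Primase-polymerase alpha, which starts every new strand, fell in all 4 subunits (median log2 fold change -1.40). Prim2, the large primase subunit, was measured at 60.5, 62.4 and 63.1 CPM in WT and at 19.9, 20.4 and 19.5 CPM in KO, a 3.28-fold decrease (log2 fold change -1.71 with an SE of 0.05, and edgeR adjusted p = 1.8e-09). Pola2, the accessory subunit, fell to the same degree, from 119, 121 and 125 CPM to 38.5, 40.2 and 41.6 CPM (3.19-fold). The catalytic subunits fell less. Prim1, which makes the RNA primer, fell 2.17-fold, and Pola1, which extends it with DNA and lies on the X chromosome, was measured at 149, 136 and 144 CPM in WT and at 87.9, 88.3 and 83.3 CPM in KO (1.74-fold).

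Every listed subunit of polymerases delta and epsilon fell. The 3 delta members had log2 fold changes of -0.77 for the catalytic Pold1, -0.73 for Pold2 and -0.90 for Pold3, which holds a PCNA-binding motif, while the delta subunit Pold4, outside the 37, rose (1.33). In epsilon, the catalytic subunit Pole was measured at 83.1, 83.6 and 87.5 CPM in WT and at 33.2, 33.6 and 32.6 CPM in KO (log2 fold change -1.43). Pole2, which binds it directly, fell 2.79-fold. The small histone-fold subunits Pole3 and Pole4 fell 1.60-fold and 1.47-fold, and Pole4 ranged from 61.6 to 63.9 CPM in WT and from 40.6 to 49.0 CPM in KO.

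Pcna was the most abundant member per length of transcript, at 216 CPM per kb of exonic sequence in WT and 72.2 in KO. Its libraries held 535, 516 and 502 CPM in WT and 173, 176 and 171 CPM in KO (log2 fold change -1.66 with an SE of 0.05, and edgeR adjusted p = 1.4e-09). A processed pseudogene, Pcna-ps2, matches 51.4% of a Pcna transcript at 99.2% identity, so reads may be split between them. Pcna-ps2 stood at 125 ± 12.4 CPM in WT and 34.5 ± 1.87 CPM in KO (SD, n = 3), and the sum of the pair was 3.09-fold lower in KO, against 2.99-fold for the CPM of Pcna alone.

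Fen1, the nuclease that trims Okazaki flaps, had the lowest log2 fold change of the 37 (-1.86, SE 0.09). It was measured at 15.5, 15.4 and 14.7 CPM in WT and at 4.29, 4.53 and 4.46 CPM in KO. Of its annotated exonic bases 84.2% lie opposite exons of other genes, among them Tmem258, which stood at 74.2 ± 4.60 CPM in WT and 66.9 ± 3.50 CPM in KO. How reads in such overlaps were counted is not given in the sources used here, so its level is uncertain. Lig1, which seals the nick that Fen1 leaves, fell less, from 127 to 136 CPM in WT to 83.0 to 87.2 CPM in KO (1.65-fold).

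The clamp loader fell unevenly. Rfc5 had the lowest log2 fold change of the loader subunits (-1.32), at 57.0, 57.5 and 60.8 CPM in WT and 22.8, 26.4 and 24.7 CPM in KO (2.50-fold), and Rfc2, Rfc3 and Rfc4 fell 1.89-, 1.80- and 1.72-fold. Rfc1, the large subunit that is particular to the canonical loader, was measured at 112, 107 and 117 CPM in WT and at 96.3, 93.5 and 89.5 CPM in KO, a 1.27-fold decrease (log2 fold change -0.35 with an SE of 0.05, and edgeR adjusted p = 0.00017). The groups did not overlap, and the KO values lay close under the WT values. In the alternative loader that acts in sister chromatid cohesion, Chtf18 fell 1.93-fold and Dscc1, the least abundant member per length in WT at 3.69 CPM per kb, fell 1.65-fold. Rfc1, Rfc2, Rfc3 and Rfc5 lie on chromosome 5, which with Pole and Slbp holds 6 of the members, and the 37 are spread over 17 chromosomes.

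The RPA subunits, which form a stable trimer on single-stranded DNA, fell by unequal amounts. Rpa2, the subunit phosphorylated in response to replication stress, was measured at 60.4, 62.1 and 59.9 CPM in WT and at 23.9, 23.1 and 26.9 CPM in KO (log2 fold change -1.38 with an SE of 0.07, and edgeR adjusted p = 3.3e-08). Rpa1, the large DNA-binding subunit, was measured at 173, 177 and 182 CPM in WT and at 162, 155 and 159 CPM in KO (log2 fold change -0.24 with an SE of 0.05, and edgeR adjusted p = 0.0011). Rpa3, the smallest subunit, had the widest spread, at 55.7, 44.7 and 44.9 CPM in WT and 41.1, 38.9 and 29.96 CPM in KO (log2 fold change -0.48 with an SE of 0.12, and edgeR adjusted p = 0.0042). Its groups did not overlap, and it had the largest SE of the 37.

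GINS joins Cdc45 and the MCM ring to make the active helicase. Gins2 was measured at 86.2, 99.4 and 91.7 CPM in WT and at 29.5, 29.5 and 35.04 CPM in KO, a 3.11-fold decrease. Opposite-strand exons of Gse1 cover 67.3% of its exonic bases. Gse1 itself rose from 7.29 ± 0.748 to 19.3 ± 1.07 CPM (edgeR adjusted p = 4.4e-07). Gins1 fell 2.80-fold and Gins3 2.15-fold, while Gins4, at 58.8, 59.0 and 55.9 CPM in WT and 35.8, 36.0 and 39.3 CPM in KO, fell 1.65-fold. Cdc45 fell 1.75-fold and Mcm10, which helps to start the assembled helicase, 1.84-fold.

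Among the fork protection genes, Tipin and Timeless encode partners in 1 heterodimer. Tipin was measured at 142, 134 and 132 CPM in WT and at 53.3, 52.9 and 50.8 CPM in KO (2.74-fold lower), and Timeless at 35.3, 37.7 and 37.2 CPM in WT and 19.2, 24.1 and 22.2 CPM in KO (1.78-fold lower). Clspn, the mediator that passes the checkpoint signal to Chk1, fell 2.60-fold, and Wdhd1, which couples the helicase to polymerase alpha, fell 2.02-fold. Both CAF-1 members, which deposit new histones behind the fork, fell. Chaf1b went from 57.7, 59.4 and 56.9 CPM in WT to 22.5, 23.2 and 24.1 CPM in KO (2.63-fold), and Chaf1a, of which 52.5% of exonic bases lie opposite Ubxn6 (not called), fell 2.39-fold. Slbp, which binds the stem-loop of histone mRNAs, fell 1.60-fold, from 117 to 124 CPM in WT to 74.6 to 85.2 CPM in KO.

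To compare subunits without any scaling between libraries, each subunit's counts per kb were expressed as a share of its complex within each library. With 3 libraries against 3 the smallest two-sided p of the exact permutation test is 0.1, so no single share can pass 0.05. This value, which means groups that do not overlap, was reached by 24 of 34 shares in 9 complexes, and the lowest Benjamini-Hochberg adjusted value was 0.14. The CPM of 76.8% of all tested genes did not overlap either, so the shares are given as a description. For polymerase delta, the accessory subunit Pold4, which is not among the 37, was added because it completes the complex. Rbbp4 in CAF-1 and Chtf8 in the alternative loader, also outside the 37, were included too. Rbbp4 held 56.9% in WT and 67.0% in KO, and Chtf8 held 12.8% and 19.8% (exact permutation p = 0.1 for each). Pold4 (chr19:4231899-4233634, plus strand) rose, from 9.21, 9.19 and 9.29 CPM in WT to 22.9, 24.7 and 25.7 CPM in KO (log2 fold change 1.33 with an SE of 0.08, and edgeR adjusted p = 9.5e-08). Its share of the delta transcripts was 12.2%, 11.5% and 12.4% in WT and 37.2%, 36.4% and 36.4% in KO, while that of Pold2 was 59.5 ± 1.58% in WT and 43.6 ± 0.186% in KO (SD, n = 3).

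In other complexes some shares did not overlap between the groups and others did. In RPA, Rpa2 held 21.5 ± 1.24% of the counts per kb in WT and 12.0 ± 1.77% in KO (SD, n = 3), while Rpa3 held 44.9% and 46.6% (exact permutation p = 0.8). In GINS, Gins4 held 46.6 ± 1.45% in WT and 59.3 ± 0.794% in KO, while Gins3 held 10.7% and 10.5% (exact permutation p = 0.7). In the clamp loader, Rfc1 held 25.1 ± 0.905% in WT and 33.5 ± 1.03% in KO, and Rfc2, Rfc3 and Rfc4 had exact permutation p from 0.2 to 0.5. In polymerase epsilon, Pole held 9.91 ± 0.353% in WT and 6.14 ± 0.0382% in KO, while Pole3 held 49.6% and 52.0% (exact permutation p = 0.3). Shares of counts per kb depend on the annotated exonic length, and without division by length the Pold4 difference was 14.1 percentage points in place of 24.6.

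**Figure D3:**
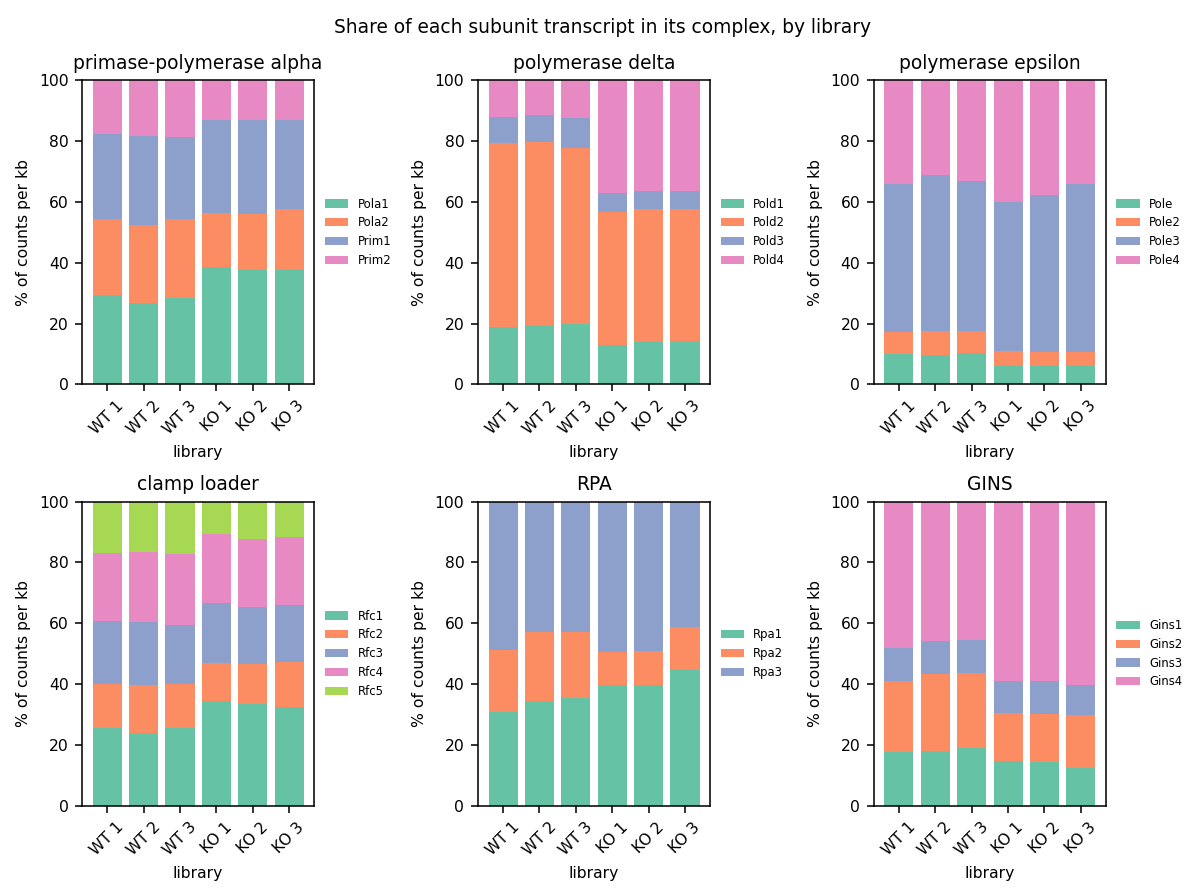
Share of each subunit in the summed counts per kb of its complex, in percent, for each of the 6 libraries and 6 of the complexes. The Pold4 segment is 11.5% to 12.4% in the WT bars and 36.4% to 37.2% in the KO bars, and the Rpa2 segment is narrower in every KO bar (10.9% to 14.1%) than in any WT bar (20.1% to 22.6%).

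The rest of the replication pathway was read from 5 further lists in the same fit, in which 37.5% of all tested genes were called as lower and 37.7% as higher. Of 15 genes of the MCM helicase and origin licensing, 14 fell (median log2 fold change -1.29), led by Mcm3 (-1.99). The exception was Orc3, an origin recognition subunit, at 34.5 ± 1.01 CPM in WT and 34.1 ± 2.60 CPM in KO (edgeR adjusted p = 0.21). All 7 origin firing genes fell (median -1.27), among them the kinase pair Dbf4 (-1.50) and Cdc7 (-1.50) and the scaffold Topbp1 (-1.47). All 10 ATR checkpoint genes fell (median -0.67), with the kinase Chek1 at -1.72.

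Of 13 other fork and chromatin assembly factors, 10 fell, Pold4 rose and 2 were not called (median -0.80). Dna2, a nuclease-helicase that cuts long Okazaki flaps, was measured at 15.3, 15.5 and 14.9 CPM in WT and at 3.01, 3.05 and 2.99 CPM in KO, a 5.31-fold decrease that is larger than that of any of the 37 fork genes. The histone chaperones Nasp and Asf1b fell (log2 fold changes -1.89 and -1.72). Chtf8 (-0.13) and Rnaseh2c (-0.03), a subunit of the enzyme that removes ribonucleotides from DNA, were not called.

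Of 14 other DNA polymerase genes, which serve repair, lesion bypass and mitochondria, 7 fell, 6 rose and Polg2 was not called (median -0.13, against -0.92 for the fork genes and 0.01 for all tested genes). Calls in both directions were also common over all tested genes, at 37.5% lower and 37.7% higher. Polq, the polymerase of end joining by microhomology, fell (-1.64), as did the bypass polymerases Polh (-0.79) and Rev1 (-0.84). Polm, an end-joining polymerase, rose from 6.11 ± 0.884 CPM in WT to 19.3 ± 0.769 CPM in KO (log2 fold change 1.58), and Rev3l, the catalytic subunit of polymerase zeta, rose (0.62). Poln (1.69), Poli (0.51), Primpol (0.24) and Polk (0.22) also rose, but the last pair lost its call in the DESeq2 Wald test (adjusted p = 0.071 and 0.086). Both also lost the call with no low-count filter and without WT replicate 2, WT replicate 3 or KO replicate 1. Polk lost it without WT replicate 1 or KO replicate 2 as well. The difference between the lists was not tested.

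**Figure D4:**
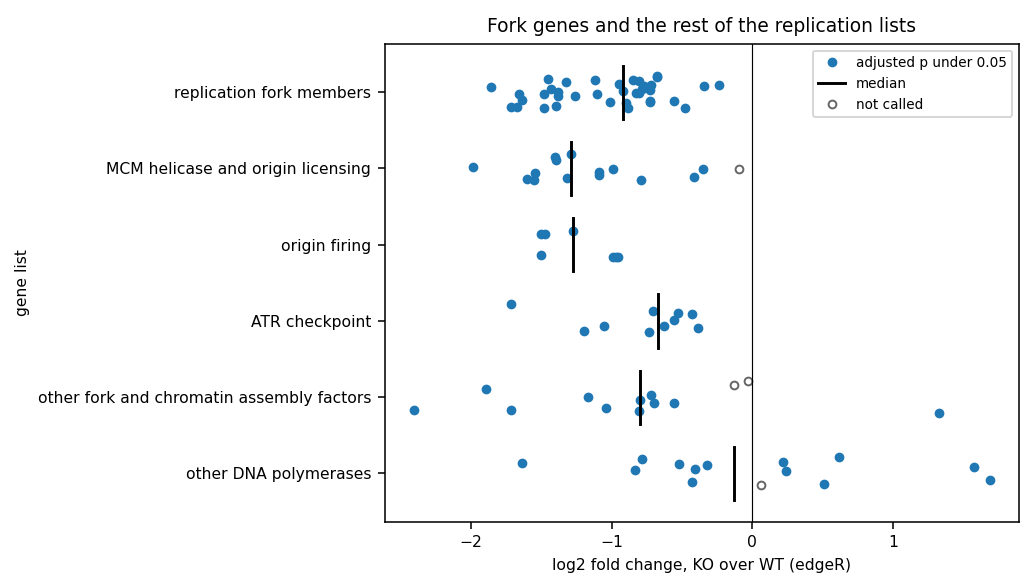
Log2 fold change, KO over WT, of each gene in the 37 fork members and 5 further replication lists (filled, edgeR adjusted p under 0.05; open, not called; bar, list median). The fork, origin firing and ATR checkpoint points all lie left of 0, and the other DNA polymerases lie on both sides with a median of -0.13.

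Several members share a start region with a gene on the opposite strand. A start within 1000 bases of a member's own was annotated for 16 members, and in 8 pairs the neighbour was a protein-coding gene that passed the low-count filter. Of these 8 neighbours 4 fell, 2 rose and 2 were not called, where 75.1% of all tested genes were called. In 8 of 8 pairs the neighbour's log2 fold change lay above that of the fork gene. Little can be read from this count, since the fork genes all lie low: 13.3% of all tested genes lie at or below their median. Among tested neighbours not annotated as protein-coding, 1700001G17Rik beside Prim2 (-1.05) and Gm15728 beside Rfc5 (-1.08) fell. AV099323 beside Pcna was not called (-0.70). Their WT means were low, at 0.577, 1.34 and 1.57 CPM in this order. Abhd12, whose start lies 659 bases upstream of that of Gins1, rose from 51.6 ± 2.51 to 69.7 ± 1.36 CPM (SD, n = 3; log2 fold change 0.36, edgeR adjusted p = 0.00016) where Gins1 fell (-1.48). Smyd4, 109 bases from Rpa1, rose (0.46). Socs4, 74 bases from Wdhd1, was not called (0.13, edgeR adjusted p = 0.18), and Umad1 beside Rpa3 was not called (0.23). Socs4 was called as higher with library totals alone (0.21, edgeR adjusted p = 0.045), and Umad1 without KO replicate 3 (0.34, edgeR adjusted p = 0.018). Pxmp2 beside Pole (-0.71), Ufd1 beside Cdc45 (-0.31), Tmem258 beside Fen1 (-0.23) and Rpusd1 beside Chtf18 (-0.20) fell. With library totals alone Tmem258 (edgeR adjusted p = 0.054) and Rpusd1 (edgeR adjusted p = 0.19) lost their calls, and Pxmp2 lost its call without KO replicate 1 (-0.51, edgeR adjusted p = 0.057).

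**Figure D5:**
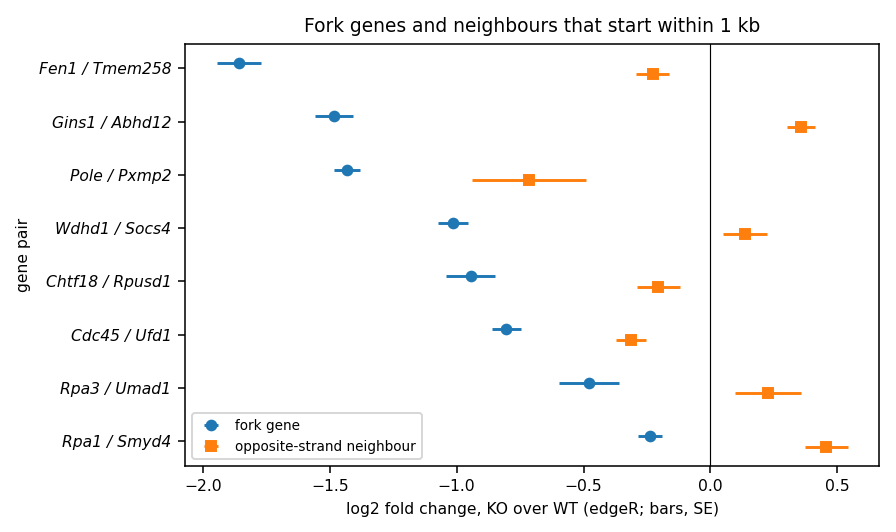
Log2 fold change, KO over WT (bars, SE), of 8 fork genes (circles) and of the protein-coding neighbour that starts within 1000 bases on the opposite strand (squares). The square lies right of the circle in all 8 pairs, nearest for Cdc45 and Ufd1 (-0.81 and -0.31).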

How the data were processed

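The authors deposited raw read counts per Ensembl gene, 1 file per library. The submitters' processing notes name STAR 2.7.10b and GRCm38. Per the labels' protocols, libraries were poly(A)-selected and directional. The sources used here do not give the counting program, its annotation, its strand setting or its handling of multi-mapped reads. Symbols, positions and exonic lengths came from GENCODE M21 (GRCm38), which held 28230 of 28293 identifiers. Promoter letters came from RefSeq (GRCm38.p6).

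Genotypes were compared in edgeR 4.0.16 (R 4.3.3), KO over WT, by the quasi-likelihood test with TMM scaling (factors 0.968 to 1.03) and filterByExpr, on all 6 libraries. A gene was called at an adjusted p under 0.05. The SE is the log2 fold change divided by the square root of F. The test was checked on simulated counts in which few genes changed. That check does not cover data such as these, in which most tested genes were called. Near-identical transcripts were sought with blastn. Figures were drawn with matplotlib 3.10.9.

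Alternatives within edgeR were relative log expression (RLE), upper-quartile and library-total scaling, 2 other filters, a replicate block and leaving out each library. The others were the DESeq2 1.42.0 Wald test and limma-voom (limma 3.58.1). Genes named are Tmpo, Mki67, Top2a, Rbbp4, all 37 members and divergent neighbours. In the other lists they are genes that rose or were not called and up to 4 with the smallest p. Values per library are given for some genes, among them the largest and smallest change of several complexes. Top2a, Rbbp4 and genes that overlap or nearly match a member were added to the text after their values were seen. The members and lists were chosen with earlier results of these data known. Replicates of a group differed by more than sampling noise (chi-square of 3.05 to 14.3 per gene).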

Additional observations from a re-analysis of the deposited data

How the results depend on the processing

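All 37 fork genes kept their direction and their call in each of 14 alternatives (518 of 518 gene and alternative pairs). The median log2 fold change of the 37 was -0.92; it was -0.85 under upper-quartile scaling and -0.84 under library totals alone, and -0.93 relative to the median of all tested genes under each scaling, and it ranged from -0.995 (without KO replicate 3) to -0.87 over the fits that left out 1 library. The split of all called genes, 5678 higher and 5652 lower, was 6181 and 5139 under library totals alone. With the replicate number as a block, 11697 genes were called in place of 11330, and all 37 members again. Deviations of same-numbered libraries correlated at 0.15, -0.12 and 0.16, and WT replicate 1 correlated best with KO replicate 2. With so few libraries these values cannot tell whether the numbers pair the samples. Without the 6 members of which at least 10% of exonic bases lie opposite another gene, an alternative chosen after seeing the data, all 31 others were lower with a median of -0.88. Of 34 subunit shares under 7 alternatives, 6 of 238 differences changed sign. Among the shares described above, Gins3 changed sign without KO replicate 3 and without division by length. Rpa3 changed sign without division by length. Both shares overlapped between the groups. Leaving out a library left 4 to 6 of the other DNA polymerases higher. Of 1008 pairs of an alternative and a gene outside the members, recomputed after seeing the data, 973 kept direction and call, 22 lost the call and 5 gained it, all in Rpusd1, Polk, Primpol, Tmem258, Pxmp2, Socs4, Umad1 and Ubxn6. Only Rnaseh2c and Mki67, neither of them called, changed sign: Rnaseh2c was 0.033 under upper-quartile scaling, 0.047 under library totals and -0.17 to 0.083 over the fits that left out 1 library, and Mki67 was -0.0098 with no low-count filter and -0.057 to 0.058 over the fits that left out 1 library. With the replicate block Socs4 (0.13, adjusted p = 0.040) and Umad1 (0.22, adjusted p = 0.048) were called by edgeR. Each member had at least 115 counts in every library, and the shares of depth and of library number in their errors were not tested.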
